A study of Mus musculus with 19 samples.

Results

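The genes described here are 10 genes of lipolysis, the lipid droplet and beta-adrenergic signalling, read in mammary glands and mammary tumors of mice. They were taken by symbol from a table of 46078 genes, and all 10 were found. The rule used no measured value, but the genes were chosen with earlier results of these data known. The 10 are *Adrb3*, *Pde3b*, *Pnpla2*, *Lipe*, *Mgll*, *Abhd5*, *G0s2*, *Plin1*, *Plin2* and *Plin4*.

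RNA sequencing covered 19 libraries from female mice in 5 groups. The paper gives a mixed FVB/C57/BALB/c background for the cohorts with MMTV-neu and states no strain for the wild-type mice. All groups but the wild type carried MMTV-neu, a transgene that expresses ERBB2 in mammary epithelium. MG-WT was 3 glands of age-matched wild-type mice. MG-N was 4 glands of tumor-bearing mice taken where no malignant lesion was seen, of which replicate 1 carried MMTV-neu and Fsp-Cre, a Cre transgene active in fibroblasts. MG-N replicates 2, 3 and 4 carried MMTV-neu and the conditional p53wm-R172H/+ allele, which makes wild-type p53 until Cre converts it, and no Cre. MG-NP was 4 such glands with MMTV-neu, p53wm-R172H/+ and Fsp-Cre together, and these were the glands with mutant p53 in fibroblasts. T-N was 4 tumors with MMTV-neu and Fsp-Cre, and T-NP was 4 tumors with MMTV-neu, p53wm-R172H/+ and Fsp-Cre. The sample names of T-NP replicates 1 and 2 share an animal number. Where separate animals are not stated, the p-values below measure only the spread between samples. The ages of the sampled mice were not given in the sources used here.

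Fat cells store triglyceride in a droplet, and the droplet is guarded by coat proteins of the perilipin family. In adipocytes, catecholamines act on the beta-3 receptor, cyclic AMP rises, and protein kinase A phosphorylates hormone-sensitive lipase and perilipin 1. Phosphorylated perilipin 1 lets go of the co-activator of the first lipase. Fatty acids are then released in a chain of steps by 3 lipases. The mammary gland lies within a fat pad, and its secretory epithelium also makes lipid droplets, which it coats with perilipin 2 and secretes as milk fat.

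Values are the deposited normalized counts, which are reads on a gene divided by a factor for library size. Reads recovered from them numbered 20899152 to 27262440 in the 16 libraries with the neu transgene and 54677315 to 62645459 in MG-WT. The test was limma on log2(normalized count + 1), and genes were called at an adjusted p-value under 0.05 and a change of at least 2-fold. On this scale the added 1 narrows the change of a library near 0 counts, and the mean of log2 values gives a single low library more weight than a ratio of mean counts does. A two-sided exact permutation test cannot go below 0.0286 with 4 samples against 4 and 0.0571 with 4 against 3.

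The labelled tissue was compared with marker lists. A score was made for each library as the mean log2 level of 9 white adipocyte markers: *Adipoq*, *Lep*, *Retn*, *Cfd*, *Pparg*, *Cebpa*, *Lpl*, *Cd36* and *Thrsp*. The score was 14.46 ± 0.12 (SD, n = 4) in MG-N and 13.66 ± 0.56 (n = 4) in MG-NP. It was 6.87 ± 0.43 (n = 3) in MG-WT, 7.52 ± 2.26 (n = 4) in T-N and 8.05 ± 0.43 (n = 4) in T-NP. The 3 wild-type glands carried almost no transcript of *Adipoq*, at 1.7, 23.4 and 9.8, or of *Lep*, at 7.7, 15.1 and 9.3. The 9 markers were not alike there, since *Cd36* ran from 3326.9 to 3965.3, *Lpl* from 1076.8 to 2011.0 and *Cebpa* from 1664.4 to 1911.4. Their 8 luminal epithelial markers were above those of both gland groups with neu, and their immediate-early genes scored 15.42 ± 0.20 (n = 3), against at most 9.38 in any other library. In T-N replicate 2 *Adipoq* was 3.2 and *Lep* was 0. In these bulk samples fewer fat cells and less RNA per fat cell cannot be told apart. MG-NP also held skeletal muscle: 13 muscle genes took up 1.77%, 8.65%, 0.0539% and 4.77% of the reads in replicates 1 to 4. MG-NP replicate 4 had a normalized count of 56926 for *Ucp1*, the uncoupling protein of brown fat, and no other library exceeded 1967.

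**Figure D1:**
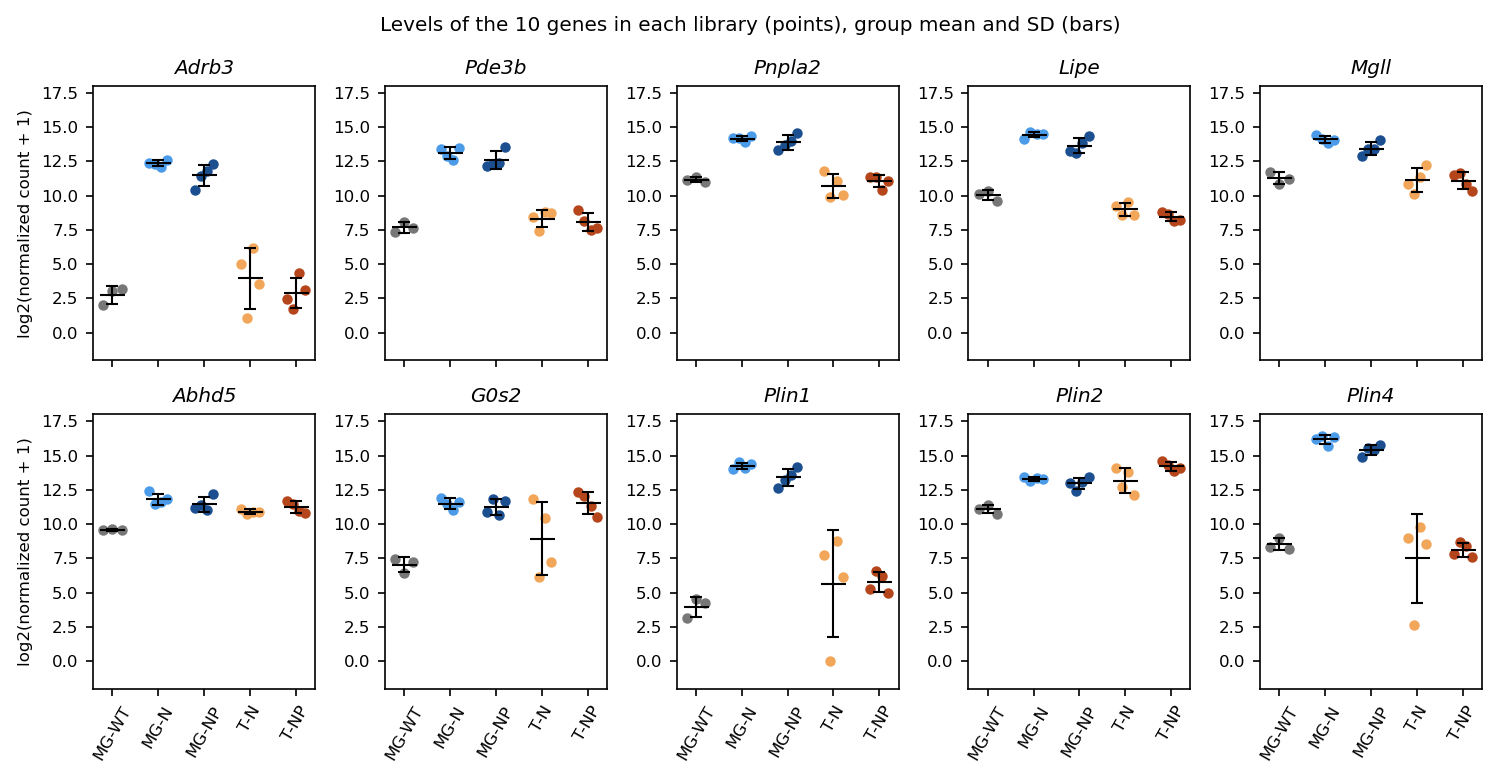
Level of each of the 10 genes in the 19 libraries, as log2(normalized count + 1) on the vertical axis, with groups on the horizontal axis, points for libraries and bars for the mean and SD. For 7 genes the MG-N and MG-NP glands lie above both the wild-type glands and the tumors, whereas *Abhd5*, *G0s2* and *Plin2* keep high levels in some or all tumors.

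Over the 19 libraries *Plin1* spanned 14.52 and *Plin4* 13.78 on the log2 scale, against 11.6 for *Adrb3*. Without T-N replicate 2 these ranges were 11.4, 8.83 and 10.85. *Plin1*, which coats the droplets of fat cells and gates lipase access, had normalized counts of 16550.4, 23465, 17309 and 21089.9 in MG-N replicates 1 to 4. It had 6422, 9621, 12394 and 18105 in MG-NP. In MG-WT it was 7.7, 22.0 and 17.6. The gland groups with neu overlapped each other, and every one of their 8 libraries stood far above the wild-type glands. In T-N replicates 1 to 4 *Plin1* was 210.2, 0, 437.3 and 68.9, and in T-NP 37.0, 92.7, 72.7 and 31.2. T-N was the most scattered group. Its replicate 2 held 0 reads of *Plin1*, where the floor is 3 reads, so that library's log2 value rests on the added 1.

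Like *Plin1* but at a higher level, *Plin4*, a perilipin of nascent adipocyte droplets, was high in MG-N and MG-NP and far lower elsewhere. Its normalized counts were 75275.5, 88228, 53686.5 and 85735 in MG-N. The MG-NP glands had 30101, 47142.5, 43607 and 55030.1. It was 325.0, 517.4 and 290.9 in MG-WT. The MG-NP values lay below those of MG-N except that MG-NP replicate 4 passed MG-N replicate 3. The T-N tumors had 515.8, 5.3, 896.8 and 366.5, and the T-NP tumors had 220.9, 418.4, 336.4 and 192.3. T-N replicate 2 was again the lowest, and the tumors overlapped the wild-type glands.

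*Plin2* is the perilipin of most cell types, including the secretory epithelium of the breast, and its highest values were in tumors. It had 11158, 9046, 10369 and 9787 normalized counts in MG-N. The MG-NP glands had 8264.5, 5592.5, 8781 and 10917. The wild-type glands had 2248, 2727.5 and 1737. The T-N tumors had 17241, 6541, 14035 and 4526, and the T-NP tumors had 25445, 19887, 15137 and 17456. All 4 T-NP tumors were above all 8 glands with neu, while the T-N tumors split, with replicates 1 and 3 above those glands, replicate 2 within their range and replicate 4 below it. *Plin1*, *Plin2* and *Plin4* lie on chromosomes 7 (79720218 to 79732903), 4 (86648386 to 86670060) and 17 (56100591 to 56109803) of GRCm38.

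The transcripts of the lipase chain were abundant in the fatty glands and kept an appreciable level elsewhere. *Pnpla2* encodes adipose triglyceride lipase, which removes the first fatty acid. Its normalized counts were 19015, 18916, 15166 and 20473 in MG-N, 10293, 13081, 16313 and 24549 in MG-NP, and 2301, 2566 and 2035 in MG-WT. In T-N it stood at 3586, 952.5, 2155 and 1061, and in T-NP at 2620, 2606, 1370.3 and 2149. The tumors overlapped the wild-type glands, and no tumor came near a gland with neu.

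*Lipe* encodes hormone-sensitive lipase, which acts on diglycerides. It had 18415, 25591.5, 22697 and 23038 normalized counts in MG-N. The MG-NP glands had 9811.5, 8927, 14663 and 20426. The wild-type glands had 1122, 1298 and 788.5. Every tumor was lower than every wild-type gland, with 594.2, 382.5, 757.4 and 391.0 in T-N and 455.2, 401.3, 284.5 and 295.9 in T-NP. *Mgll*, the monoglyceride lipase that completes the chain, ranged from 14657 to 21461 in MG-N, 7499 to 16978 in MG-NP, 1838 to 3368 in MG-WT, 1114 to 4910 in T-N and 1317 to 3260 in T-NP. Tumors and wild-type glands overlapped for *Mgll*. *Pnpla2* and *Lipe* lie on chromosome 7 (141455198 to 141460743 and 25379527 to 25398710) and *Mgll* on chromosome 6 (88724412 to 88828360).

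The partners of *Pnpla2* behaved apart from it. *Abhd5* (chromosome 9, 122351608 to 122381524) encodes the co-activator that *Plin1* holds at the droplet. It had 5411, 2761, 3096 and 3578 normalized counts in MG-N, 2256, 2653.5, 2090.4 and 4766 in MG-NP, and 742.0, 781.9 and 755.9 in MG-WT. In T-N it had 2253, 1675, 1867 and 1896.5, and in T-NP 3344, 2796, 1959 and 1768. The T-NP tumors overlapped the MG-NP glands, and every tumor was above every wild-type gland.

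*G0s2* (chromosome 1, 193272161 to 193273217) encodes an inhibitor of the *Pnpla2* lipase. It had 3804.5, 2779, 2065 and 3202 normalized counts in MG-N, 1896, 3669.8, 1611 and 3268 in MG-NP, and 177.0, 84.4 and 149.3 in MG-WT. T-NP tumors had 5159.6, 4250.1, 2504 and 1449.6, overlapping the glands with neu. The T-N values were 3639, 70.6, 1423 and 152.9, so replicate 1 lay within the range of the glands with neu, replicate 3 just below it, replicate 4 within the range of MG-WT and replicate 2 below that. The pair of T-N tumors with more *G0s2* and *Plin2* had milk protein scores of 14.94 and 14.87 and white adipocyte scores of 8.77 and 9.69. The low pair had milk protein scores of 6.94 and 9.0 and white adipocyte scores of 4.53 and 7.11. The part of either tissue in these levels was not tested.

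Both signalling genes were high in the 8 glands with neu and low in the other 11 libraries. *Adrb3* (chromosome 8, 27225776 to 27250616), the beta-3 adrenergic receptor, had 5279.5, 5196, 4458 and 6369.8 normalized counts in MG-N. The MG-NP glands had 1380.1, 2749, 3587 and 4970.2. The wild-type glands had 3.0, 7.3 and 8.3. Normalized counts of *Adrb3* in tumors were 31.8, 1.1, 72.7 and 10.5 for T-N and 4.5, 2.4, 19.5 and 7.5 for T-NP. No tumor therefore came near the lowest gland with neu. *Pde3b* (chromosome 7, 114415281 to 114539251), the phosphodiesterase through which insulin lowers cyclic AMP, ranged from 6225 to 11641 in MG-N and 4482 to 11987 in MG-NP. It ranged from 160.4 to 267.0 in MG-WT, from 168.6 to 436.3 in T-N and from 179.2 to 502.3 in T-NP, so these 3 groups overlapped.

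The promoters of the coat genes that were low in every tumor, *Plin1* and *Plin4*, and of *Plin2* and *G0s2*, which had the highest levels per length of the 10 in T-NP tumors, are printed from RefSeq (GRCm38.p6). Each window runs from 250 bases before to 50 bases after the annotated start, 5′ to 3′ along the gene. Capitals mark an E-box (CACGTG) in *Plin2* and, in *G0s2*, TGACG, the short core of the cyclic AMP response element, read on the opposite strand.
*Plin1* promoter (chr7:79732727-79733026, minus strand): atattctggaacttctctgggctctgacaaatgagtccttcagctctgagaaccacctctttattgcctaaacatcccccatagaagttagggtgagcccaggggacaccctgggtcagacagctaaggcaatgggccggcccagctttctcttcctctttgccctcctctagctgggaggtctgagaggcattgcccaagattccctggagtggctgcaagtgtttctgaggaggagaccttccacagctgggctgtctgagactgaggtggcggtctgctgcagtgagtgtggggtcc
*Plin4* promoter (chr17:56109733-56110032, minus strand): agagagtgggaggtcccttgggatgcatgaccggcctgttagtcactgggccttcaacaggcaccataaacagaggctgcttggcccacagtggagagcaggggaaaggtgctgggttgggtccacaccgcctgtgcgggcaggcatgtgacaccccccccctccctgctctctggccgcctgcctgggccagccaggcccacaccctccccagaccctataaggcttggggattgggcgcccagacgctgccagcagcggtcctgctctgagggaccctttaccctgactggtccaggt
*Plin2* promoter (chr4:86670010-86670309, minus strand): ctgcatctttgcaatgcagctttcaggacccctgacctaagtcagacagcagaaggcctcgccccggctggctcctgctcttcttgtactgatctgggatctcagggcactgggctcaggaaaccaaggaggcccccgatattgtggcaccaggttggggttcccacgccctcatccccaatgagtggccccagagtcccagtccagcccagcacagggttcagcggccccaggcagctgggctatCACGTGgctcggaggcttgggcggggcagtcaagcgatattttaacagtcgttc
*G0s2* promoter (chr1:193273139-193273438, minus strand): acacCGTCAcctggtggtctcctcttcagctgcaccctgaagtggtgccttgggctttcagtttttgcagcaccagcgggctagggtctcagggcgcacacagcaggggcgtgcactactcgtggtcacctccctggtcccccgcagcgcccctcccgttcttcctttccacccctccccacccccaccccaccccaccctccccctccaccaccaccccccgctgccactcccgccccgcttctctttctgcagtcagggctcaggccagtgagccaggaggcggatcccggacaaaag
Windows were found for 8 of the 10 genes, 10 windows in all. *Adrb3* and *Pde3b* had none. Both strands were searched. TGACG was present in windows of *G0s2*, *Mgll* and *Abhd5* and in 20.8% of all 32851 windows. CACGTG was present in windows of *Plin2*, *Mgll* and *Lipe* and in 7.15% of all. None of the 10 windows held a full cyclic AMP response element (TGACGTCA, 1.79% of all windows), the direct repeat AGGTCANAGGTCA (0.0396%), the palindrome TTGCGCAA (0.183%) or TATAAA (13.6%). TGACG is a part of TGACGTCA, so both searches can find the same letters. A match describes letters in these windows and no more.

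The first comparison asked how the glands of tumor-bearing N mice differed from wild-type glands. All 10 genes were higher in MG-N, from 4.57-fold for *Plin2* to 1250-fold for *Plin1*. Their median log2 fold change was 4.43, against 0.02 over all genes tested. No library of MG-N overlapped MG-WT for any of the 10, and limma called all 10. Over all 19017 genes tested, 31.5% were higher without overlap and 19.1% were called higher.

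*Plin1* rose by a log2 fold change of 10.29 ± 0.31 (SE, limma adjusted p = 4.41e-07) and *Adrb3* by 9.61 ± 0.29 (adjusted p = 4.41e-07). *Plin4* followed at 7.66 ± 0.24, *Pde3b* at 5.44 ± 0.26, *G0s2* at 4.46 ± 0.29 and *Lipe* at 4.41 ± 0.19. The smallest rises were those of *Pnpla2* at 3.0 ± 0.14, *Mgll* at 2.85 ± 0.22, *Abhd5* at 2.24 ± 0.21 and *Plin2* at 2.19 ± 0.16. All 9 white adipocyte markers were also called higher, with a median of 8.09, and all 8 luminal markers were called lower. The part of this difference in fat and epithelial transcripts in the 10 results was not tested.

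The same question for glands of NP mice gave the same calls. All 10 genes were higher in MG-NP than in MG-WT, with a median log2 fold change of 3.91, and no libraries overlapped. Of 19065 genes tested, 26.5% were higher without overlap and 16.4% were called higher. The changes ran from 1.87 ± 0.28 for *Abhd5* (limma adjusted p = 0.002) and 1.89 ± 0.25 for *Plin2* to 8.73 ± 0.49 for *Adrb3* and 9.45 ± 0.44 for *Plin1* (adjusted p = 2.63e-05). These values share the wild-type glands with the comparison above. With the skeletal muscle score as a covariate 5 of the 10 remained called, and the calls of *Mgll*, *Pnpla2*, *Abhd5*, *G0s2* and *Plin2* were lost, at 1.77, 2.62, 0.87, 2.68 and 2.20. That score ran from 3.16 to 3.37 in MG-WT and from 9.0 to 17.04 in MG-NP. Without overlap the fit cannot tell the score from the group. Without MG-NP replicates 2 and 4, both rich in muscle, all 10 were called.

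**Figure D2:**
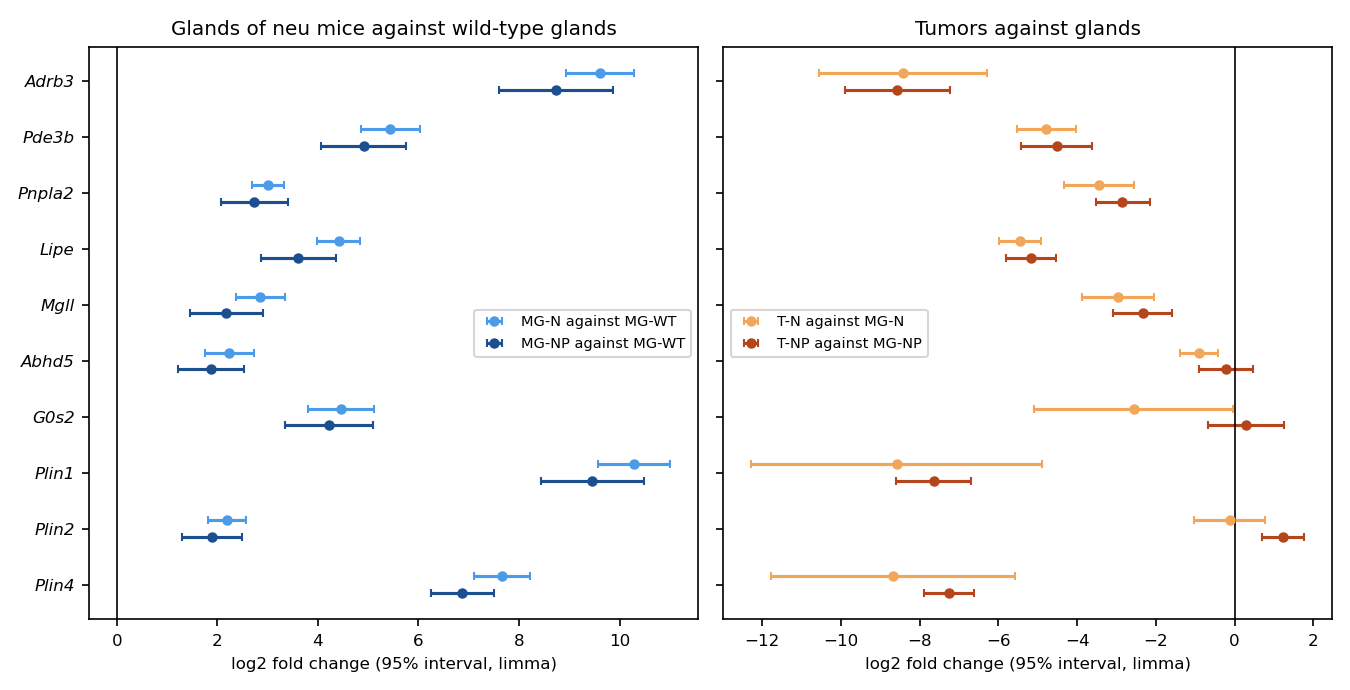
Log2 fold change of each of the 10 genes (horizontal axis) with its 95% interval from limma. The left panel sets the 2 gland groups with neu against wild-type glands. The right panel sets T-N against MG-N and T-NP against MG-NP. All intervals on the left lie above 0, and on the right *Abhd5*, *G0s2* and *Plin2* lie nearest to 0.

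The 49 other genes of the pathway were chosen in 6 lists by function. Against the wild-type glands, MG-N had 26 of the 47 tested genes called higher and 5 called lower. For MG-NP these numbers were 24 and 5 of 48. Over all genes tested, 19.1% were called higher in MG-N and 16.4% in MG-NP. No share of all genes called lower is given here for these comparisons, so the counts of lower genes are descriptions. Triglyceride synthesis was higher throughout: all 6 genes were called higher in both comparisons, with *Gpd1*, which makes glycerol phosphate, at 4.72 ± 0.19 in MG-N and 4.38 ± 0.51 in MG-NP, and *Dgat2*, which adds the last fatty acid, at 4.27 ± 0.27 and 3.29 ± 0.36.

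Among other lipases and carriers of lipolysis products, 7 of 8 were called higher in MG-N and 6 of 8 in MG-NP. *Ces1d*, a carboxylesterase of lipid droplets, rose by 10.50 ± 0.35 and 10.22 ± 0.48, and *Pnpla3*, a relative of *Pnpla2*, by 8.62 ± 0.25 and 7.38 ± 0.87. Of other droplet proteins, 5 of 9 were called higher in MG-N and 6 of 10 in MG-NP, where *Hilpda*, a lipase inhibitor induced by hypoxia, was called lower (-1.17 ± 0.22). *Cidec*, which fuses droplets of fat cells, rose by 10.55 ± 0.34 and 10.02 ± 0.43. *Fitm1*, a droplet protein of muscle, was called in MG-NP, at 6.22 ± 1.72, and was not tested in MG-N. Its counts were 227.0, 1730, 7.6 and 1250 in replicates 1 to 4, in the order of the muscle share.

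The signalling lists were mixed. Of 13 beta-adrenergic and cAMP genes, 2 were called higher and 3 lower for MG-N, against 1 and 2 for MG-NP. The share of this list called higher was below that of all genes, 19.1% for MG-N and 16.4% for MG-NP. *Prkar2b*, a regulatory subunit of protein kinase A, rose by 3.44 ± 0.33 in MG-N and 2.77 ± 0.52 in MG-NP. *Adrb1*, the beta-1 receptor, was lower by a log2 fold change of -1.64 ± 0.22 and -1.54 ± 0.27, opposite to *Adrb3*. *Pde4b*, another phosphodiesterase, was lower at -2.91 ± 0.23 and -2.25 ± 0.29. Of 9 antilipolytic receptors and insulin signalling genes 5 were called higher and 2 lower for MG-N, against 4 and 2 for MG-NP. *Hcar1*, the lactate receptor of fat cells, rose by 6.02 ± 0.20 and 5.07 ± 0.30, while *Adra2a*, an alpha-2 receptor, was lower at -2.78 ± 0.30 and -3.29 ± 0.36. Of both natriuretic peptide receptors *Npr3*, which clears the peptides, was called, at 7.25 ± 0.26 in MG-N and 5.53 ± 0.64 in MG-NP. *Cideb* was not tested in any comparison, because it was under the minimum of 10 normalized counts in too many samples.

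The comparison of T-N with MG-N asked what differed between tumors and glands with wild-type p53 in fibroblasts. Only MG-N replicate 1 had the genotype of the T-N tumors, since MG-N replicates 2, 3 and 4 carried p53wm-R172H/+ and no Cre. In tumors 7 of the 10 genes were called lower and 0 higher. Their median log2 fold change was -4.12, against -0.05 over all genes. Over all 17950 genes tested, 22.3% were called lower. *Plin4*, *Plin1* and *Adrb3* changed most, with log2 fold changes of -8.68 ± 1.37 (limma adjusted p = 0.00111), -8.59 ± 1.63 (adjusted p = 0.00270) and -8.42 ± 0.94 (adjusted p = 0.000243). Without T-N replicate 2 these were -7.07, -6.70 and -7.45, and without T-N replicate 3 they were -9.45, -9.63 and -9.17. Without replicate 1 or replicate 4 they were -9.19, -9.28 and -8.78, and -9.02, -8.74 and -8.27. All 3 were called in each of these fits. They were also called by edgeR and DESeq2, which gave smaller changes: -7.39 and -7.40 for *Plin4*, -6.75 and -6.77 for *Plin1* and -7.49 and -7.51 for *Adrb3*.

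The lipases and the phosphodiesterase were lower with less scatter. *Lipe* was at -5.45 ± 0.24 (adjusted p = 9.13e-06), *Pde3b* at -4.79 ± 0.33, *Pnpla2* at -3.45 ± 0.39 and *Mgll* at -2.97 ± 0.40. None of the 4 had overlapping libraries, and 26.4% of all genes tested were lower in T-N without overlap. *Abhd5* was lower by less than 2-fold (-0.91 ± 0.21, adjusted p = 0.00736), without overlap, and was called without MG-N replicate 2 (-1.03) and when libraries were scaled by total reads (-1.01). *G0s2* missed the threshold (-2.56 ± 1.12, 95% interval -5.10 to -0.03, adjusted p = 0.0832). It was called without T-N replicate 1 (-3.53, adjusted p = 0.0130), moved to -1.64 without replicate 2, and was called when all 5 groups shared a fit (adjusted p = 0.0183). *Plin2* was at -0.13 ± 0.39, with an interval of -1.03 to 0.77. All 9 white adipocyte markers were called lower in the same tumors, with a median of -6.85.

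In NP mice 7 genes were called lower in tumors and 1 higher. The median log2 fold change was -3.69, against -0.07 over all genes, and 24.0% of the 17880 genes tested were called lower and 14.7% higher. *Adrb3* was at -8.57 ± 0.58 (limma adjusted p = 1.84e-05), *Plin1* at -7.65 ± 0.42, *Plin4* at -7.27 ± 0.28 (adjusted p = 3.42e-06) and *Lipe* at -5.17 ± 0.28. *Pde3b*, *Pnpla2* and *Mgll* followed at -4.52 ± 0.40, -2.85 ± 0.30 and -2.34 ± 0.33. *Plin2* was called higher, at 1.23 ± 0.24 (adjusted p = 0.00270), a 2.34-fold rise seen in 4 of 4 tumors. That call was lost with the skeletal muscle score as a covariate (0.79, adjusted p = 0.145). The score did not overlap between T-NP (3.49 to 8.64) and MG-NP (9.0 to 17.04), so this fit cannot tell it from the group. *Abhd5* (-0.22, interval -0.90 to 0.46) and *G0s2* (0.28, interval -0.69 to 1.25) were not called, and their libraries overlapped.

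Without MG-NP replicates 2 and 4, the counts in T-NP against MG-NP stood at 7 lower and 1 higher. All 9 white adipocyte markers were called lower here too, with a median of -6.50. Of 8 luminal markers 7 were called higher and 1 lower. The part of either tissue in the 10 results was not tested.

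The other pathway genes were mainly lower in tumors. Of the 47 tested in N mice 28 were called lower and 2 higher, and of the 48 tested in NP mice 28 were called lower and 4 higher. Over all genes tested, 22.3% were called lower in T-N, and in T-NP 24.0% were called lower and 14.7% higher. The share of all genes called higher in T-N is not given here, so that count is a description. All 6 triglyceride synthesis genes were called lower in both, with *Dgat2* at -5.24 ± 0.69 and -4.0 ± 0.39. Of the 8 other lipases and carriers 7 were called lower in T-N and 6 in T-NP, with *Ces1f*, another carboxylesterase, at -8.64 ± 0.97 and -8.51 ± 0.61. *Hcar1* (-7.28 ± 0.55 and -7.37 ± 0.36), *Ptger3*, a prostaglandin E2 receptor (-5.92 ± 0.64 and -5.16 ± 0.50), and *Adcy5*, an adenylyl cyclase (-6.22 ± 0.80 and -5.47 ± 0.31), were lower. Both natriuretic peptide receptors were called lower in both comparisons.

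The few genes called higher were named after their values had been seen. *Adrb1* was higher in tumors of both genotypes, at 2.54 ± 0.48 in T-N (limma adjusted p = 0.00273) and 2.36 ± 0.35 in T-NP (adjusted p = 0.000634). Its counts ran from 94.7 to 149.4 in MG-N and 101.8 to 200.2 in MG-NP, against 261.3 to 1355.4 in T-N and 376.7 to 1076.3 in T-NP. The direction was opposite to that of *Adrb3* in both comparisons. *Plin3*, a perilipin found in many cell types, was higher at 1.43 ± 0.20 and 1.62 ± 0.23. *Hilpda* (1.12 ± 0.20) and *Irs2*, an adaptor of the insulin receptor (1.28 ± 0.30), were called higher in T-NP. A difference between genotypes was not called for either, with an interaction of 0.65 ± 0.27 for *Hilpda* (limma adjusted p = 0.562) and 0.75 ± 0.53 for *Irs2* (adjusted p = 0.776).

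Levels of different genes were compared as RPKM, reads scaled by exon length and library size, with lengths from GENCODE. *Plin4* was the highest of the 10 genes in all 8 glands with neu, from 223.5 to 614.3 RPKM. *Plin2* was the highest in all 8 tumors, from 46.95 to 278.1 RPKM, and *Pnpla2* in all 3 wild-type glands, from 23.82 to 31.84 RPKM. With the longest transcript as the length *Plin2* passed *Pnpla2* in the wild-type glands, at 44.57, 54.13 and 32.52 RPKM against 32.81, 36.63 and 27.41, and the highest gene was the same in the other 16 libraries. In MG-N the group means ran from 515.6 RPKM for *Plin4* through 239.8 for *Pnpla2*, 166.2 for *Plin1* and 150.3 for *Lipe* down to 24.42 for *Abhd5*. In T-NP they ran from 204.7 for *Plin2* and 142.3 for *G0s2* to 26.65 for *Pnpla2* and 0.0921 for *Adrb3*. In T-NP *Plin2* ran from 158.2 to 278.1 RPKM and *G0s2* from 59.44 to 227.4, so the ranges overlapped, although *Plin2* was the higher in each of the 4 tumors. The ranges of *Plin1* (166.2 ± 28.75) and *Lipe* (150.3 ± 22.28) in MG-N overlapped too, with *Plin1* the higher in 3 of 4 glands.

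The perilipin make-up of a library is a ratio within that library and does not move with library size. As a share of *Plin1*, *Plin2* and *Plin4* together, per length, *Plin2* made up 14.6% ± 3.28 (SD, n = 4) in MG-N and 19.6% ± 5.25 (n = 4) in MG-NP. It made up 90.3% ± 1.27 (n = 3) in MG-WT, 96.4% ± 2.80 (n = 4) in T-N and 98.8% ± 0.556 (n = 4) in T-NP. The glands with neu reached at most 26.3%, and no other library was below 89.2%. *Plin4* held 64.5% ± 4.19 in MG-N and 0.945% ± 0.410 in T-NP. Taking the longest transcript as the length gave 21.4% and 27.9% for *Plin2* in MG-N and MG-NP. With *Plin3* and *Plin5* added, *Plin3* held 31.8% ± 15.8 in T-N and 21.3% ± 3.67 in T-NP, against 2.19% ± 0.622 in MG-N. *Plin5*, a perilipin of oxidative tissues, held 2.80%, 1.92%, 0.581% and 6.75% in MG-NP replicates 1 to 4, of which replicate 4 had the most *Ucp1*, and 2.21% to 3.15% in MG-WT.

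**Figure D3:**
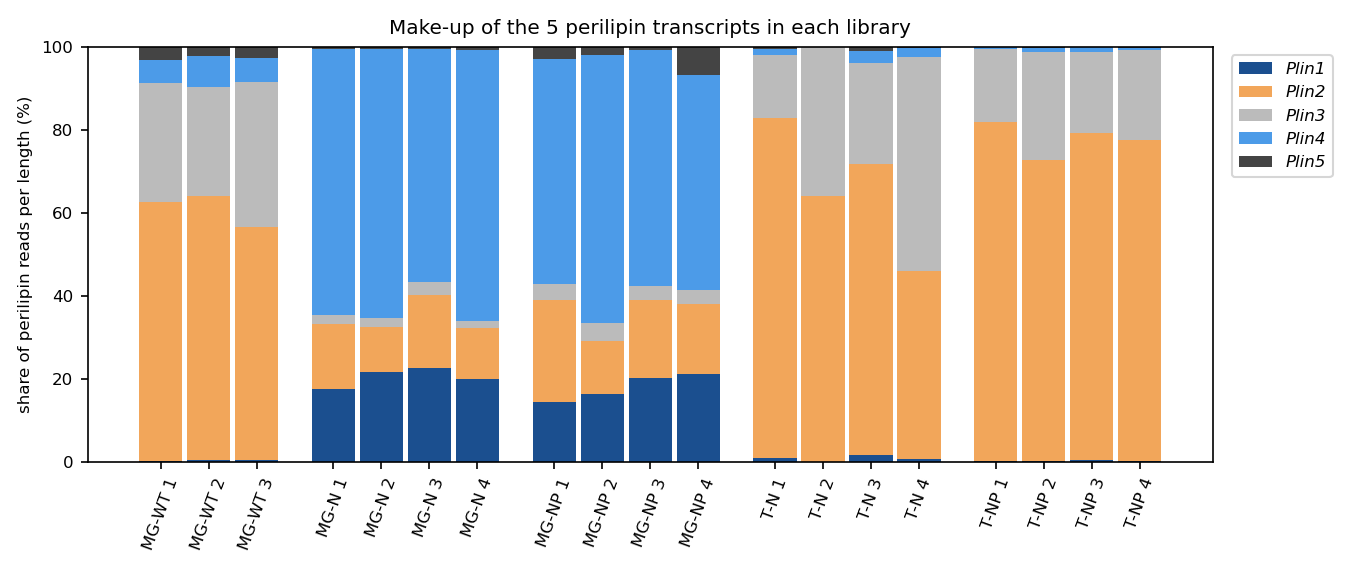
Share of each of the 5 perilipin genes in the summed perilipin reads per exon length (vertical axis, percent), in 1 bar for each of the 19 libraries. *Plin4* and *Plin1* fill most of the bar in the 8 glands with neu, and *Plin2* with *Plin3* fills nearly all of it in wild-type glands and tumors.

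Ratios to *Pnpla2* set each partner against the lipase it serves. *G0s2* per *Pnpla2*, per length, was 0.267, 0.114 and 0.254 in MG-WT and 0.694, 0.509, 0.472 and 0.542 in MG-N. The ratio was 0.639, 0.973, 0.342 and 0.462 in MG-NP. It was 3.52, 0.257, 2.29 and 0.5 in T-N and 6.83, 5.66, 6.34 and 2.34 in T-NP. All 4 T-NP tumors lay above all 11 glands, whereas T-N replicates 2 and 4 lay among the glands. *Abhd5* per *Pnpla2* was 0.169 ± 0.0171 in MG-WT (n = 3), 0.103 ± 0.0302 in MG-N and 0.0944 ± 0.0202 in MG-NP (n = 4 each). It was 0.639 ± 0.304 in T-N and 0.583 ± 0.133 in T-NP, and no tumor was below 0.319. *Lipe* per *Pnpla2* ran the other way, from 0.634 ± 0.121 in MG-N and 0.432 ± 0.0601 in MG-NP to 0.165 ± 0.0544 in T-N and 0.0864 ± 0.0156 in T-NP. The wild-type glands were at 0.250, 0.260 and 0.199 and overlapped T-N. With the longest transcript as the length the means of *Abhd5* per *Pnpla2* were 0.168 in MG-N and 0.957 in T-NP.

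**Figure D4:**
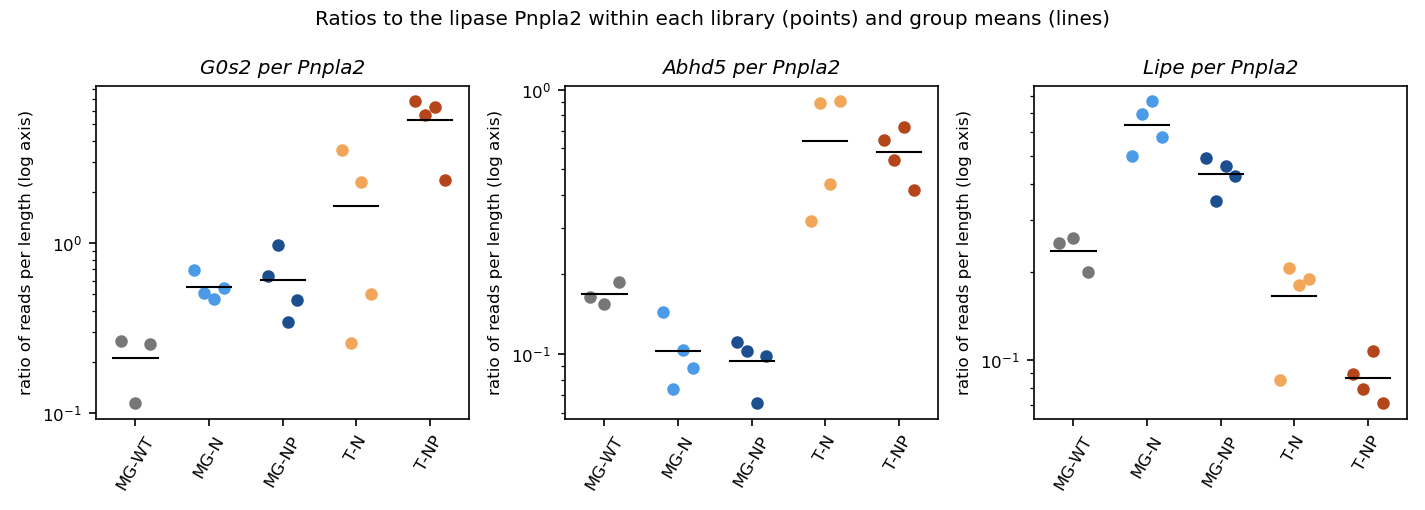
Ratio of *G0s2*, *Abhd5* and *Lipe* to *Pnpla2* in reads per exon length (vertical axes, log scale), with points for libraries and a line for each group mean. *G0s2* per *Pnpla2* is between 2.34 and 6.83 in T-NP and at most 0.973 in any gland, and *Lipe* per *Pnpla2* is at most 0.206 in any tumor, 0.199 to 0.260 in wild-type glands and at least 0.350 in the glands with neu.

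The glands with mutant p53 in fibroblasts were compared directly with MG-N. All MG-NP glands carried Fsp-Cre and most MG-N glands did not, so Cre itself differed along with mutant p53. All 10 log2 fold changes were below 0, with a median of -0.60 against -0.02 over all genes, but limma called none. Of the 18563 genes tested limma called 0% (0 genes). The paper used DESeq2 at an adjusted p-value under 0.05 and reported genes that differed in both directions between these glands. Among the 10, 5 had an unadjusted p under 0.05, and edgeR and DESeq2 called 0. The share of all genes at that p-value, or called by these tools, is not given here, so these counts are descriptions. *Adrb3* was at -0.88 (95% interval -1.69 to -0.07, adjusted p = 0.428), *Plin1* at -0.84 (-1.54 to -0.14), *Lipe* at -0.81 (-1.43 to -0.18), *Plin4* at -0.79 (-1.41 to -0.17) and *Mgll* at -0.67 (-1.25 to -0.10). The intervals of *G0s2*, *Pnpla2*, *Plin2*, *Abhd5* and *Pde3b* included 0. For all 10 genes the normalized counts of the groups overlapped, while 4.15% of all genes were lower in MG-NP without overlap. Per total reads, *Adrb3*, *Lipe*, *Mgll*, *Plin1* and *Plin4* were lower in MG-NP without overlap, as were 6.23% of all genes. Scaling by total reads moved the median of all genes to -0.18 and gave -1.04 for *Adrb3*, -1.0 for *Plin1*, -0.97 for *Lipe*, -0.95 for *Plin4* and -0.83 for *Mgll* (limma adjusted p from 0.187 to 0.231), and none of the 10 was called. Marker lists differed alongside, with medians of -0.73 over 9 white adipocyte markers, -1.27 over 6 fibroblast markers and 6.12 over 13 skeletal muscle genes. Of these markers limma called 0, and DESeq2 called all 13 muscle genes and 2 fibroblast markers. The DESeq2 counts too are given without a share of all genes. Their part in the 10 results was not tested.

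The 2 tumor groups were likewise compared. None of the 10 genes was called, and 0.0421% of 16638 genes tested were. Of the 10, 2 had an unadjusted p under 0.05 by limma, and edgeR and DESeq2 called 0. These were *G0s2* (2.61, 95% interval 0.01 to 5.21, adjusted p = 0.685) and *Plin2* (1.06, interval 0.12 to 1.99, adjusted p = 0.681). The share of all genes under that unadjusted p is not given here, so the count is a description. *Plin2* in T-NP was above T-N in all pairings except that T-N replicate 1 passed T-NP replicate 3. With edgeR and DESeq2 *G0s2* was at 1.33 in both (unadjusted p = 0.233 and 0.235), and without 1 library it ran from 1.69 to 3.58 by limma. The intervals of the other 8 included 0 and were as wide as -3.65 to 3.84 for *Plin1*. *Plin1* was at 0.1 by limma but at -1.63 by edgeR and -1.64 by DESeq2.

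Whether the difference between tumor and gland depended on genotype was tested as an interaction over 16 samples. Most MG-N glands lacked Fsp-Cre, which all other samples in this test carried, so genotype here includes Cre. None of the 10 was called, and 0% of the 19367 genes tested were (0 genes). *Plin2* had 1.36 (95% interval 0.32 to 2.39, limma adjusted p = 0.529) and *G0s2* 2.84 (interval 0.10 to 5.59, adjusted p = 0.609), and these 2 alone had an unadjusted p under 0.05. For that p-value no share of all genes is given here. The *G0s2* interaction was 1.54 by edgeR, 1.53 by DESeq2 and 1.92 to 3.81 by limma without 1 library. The *Plin2* and *G0s2* tumor results in the 2 genotypes were therefore not shown to differ.

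Tumors and wild-type glands were both low in fat markers and were also compared. In T-N, *Plin2* (2.06 ± 0.46, limma adjusted p = 0.00635) and *Abhd5* (1.33 ± 0.14, adjusted p = 0.000271) were higher, where 17.4% of 18236 genes were called higher. *Lipe* was lower (-1.04 ± 0.30, adjusted p = 0.0186), where 25.0% of genes were called lower. The *Lipe* call was lost by edgeR (-0.95), by DESeq2 (-0.99) and without MG-WT replicate 1 or 2 or T-N replicate 2 or 4 (-0.88 to -0.99), since the change then fell below 2-fold or the adjusted p above 0.05. Without T-N replicate 2 *Plin1* (3.59, adjusted p = 0.00573) and *Adrb3* (2.17, adjusted p = 0.0395) were called higher. DESeq2 also called *G0s2* (3.29) and *Plin1* (3.52).

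In T-NP 9 of the 10 could be tested, since *Adrb3* was below 10 normalized counts in too many samples. *G0s2* (4.50 ± 0.44, limma adjusted p = 3.79e-05), *Plin2* (3.12 ± 0.21, adjusted p = 6.50e-06), *Plin1* (1.80 ± 0.50, adjusted p = 0.0108) and *Abhd5* (1.65 ± 0.22) were called higher, where 19.8% of 18233 genes were. *Lipe* was lower (-1.57 ± 0.23, adjusted p = 0.000361), where 28.0% of genes were. The *Plin1* call was lost when all 5 groups shared a fit (adjusted p = 0.243). *Pnpla2* (-0.11, interval -0.63 to 0.40), *Mgll* (-0.15, interval -0.90 to 0.60), *Plin4* (-0.39, interval -1.11 to 0.32) and *Pde3b* (0.39, interval -0.44 to 1.22) were not called. The wild-type glands differed from every tumor in the immediate-early score as well, and the part of that difference was not tested.

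Each gene was also measured relative to the white adipocyte score of its library, by subtracting the score from its log2 level. In T-N against MG-N 5 genes were then called higher (*Abhd5*, *G0s2*, *Mgll*, *Plin2* and *Pnpla2*), but so were 96.7% of all genes. In T-NP against MG-NP 6 were called higher, the same 5 with *Pde3b*, where 95.4% of all genes were. Genes lower relative to the score were rarer, with 0.302% of genes in T-NP. These included *Adrb3* at -2.96 ± 0.59 (limma adjusted p = 0.000128), *Plin1* at -2.04 ± 0.38 and *Plin4* at -1.66 ± 0.35. These calls depended on the markers in the score, which did not fall alike: *Retn* was at -8.15, *Adipoq* at -7.64, *Lep* at -7.45 and *Cfd* at -7.22, but *Cd36* was at -3.36, *Cebpa* at -2.19 and *Thrsp* at -1.85. Relative to *Adipoq*, *Cfd*, *Lep* and *Retn* alone, *Adrb3* was at -0.95, *Plin1* at -0.04 and *Plin4* at 0.35, and none of the 3 was called. *Lipe* was not called relative to all 9 markers, at 0.44 (95% interval -0.34 to 1.21), and was called higher relative to those 4 (2.44, adjusted p = 7.04e-05). In T-N the same 3 genes were at -1.49, -1.66 and -1.76 and were not called, with *Adrb3* called without T-N replicate 2 (-1.52). The *Pde3b* call in T-NP was lost without MG-NP replicate 2 (0.98) and without T-NP replicate 1 (0.79).

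Between MG-NP and MG-N the relative changes were close to 0, from -0.08 for *Adrb3* to 0.56 for *G0s2*. None was called by limma, 0 had an unadjusted p under 0.05, and 7.70% of all genes were called, with a median over all genes of 0.77. Other tools were not run on this scale. Across the 10 genes the 95% intervals reached from -0.68 for *Plin4* to 1.26 for *G0s2*. Between T-NP and T-N none of the 10 was called relative to the markers either.

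**Figure D5:**
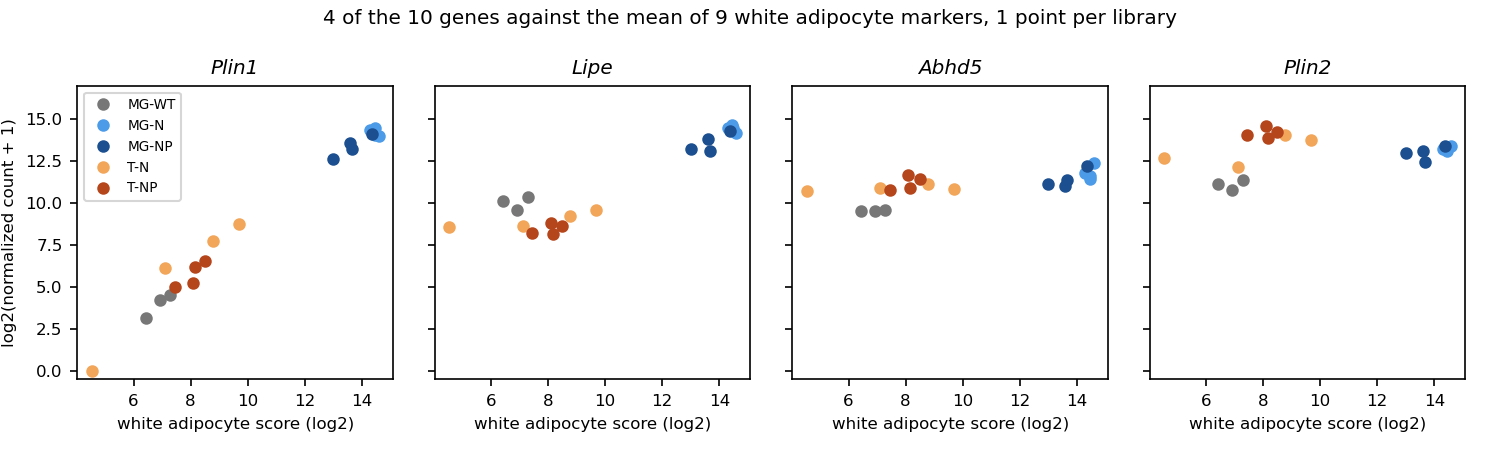
Level of *Plin1*, *Lipe*, *Abhd5* and *Plin2* as log2(normalized count + 1) (vertical axis) against the white adipocyte score, the mean log2 level of 9 markers (horizontal axis), with 1 point per library coloured by group. *Plin1* climbs with the score across the 19 libraries, and *Lipe* is lower in the tumors than in wild-type glands of a like score. *Plin2* lies above the glands with neu in all T-NP tumors and in T-N replicates 1 and 3. It lies within their range in T-N replicate 2 and below it in T-N replicate 4.

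The genes whose pattern over the 19 libraries was closest to the mean pattern of the 10 were found among 14832 genes by the root mean square difference of centered log2 levels. They were *Acsl1* (0.385), an enzyme that activates fatty acids, *Lgals12* (0.517), a galectin of adipocyte droplets, *Gpd1* (0.576), *Adig* (0.578), a small protein of fat cells, and *Clec10a* (0.639), a lectin of macrophages. *Pde3b* was the closest of the 10 to their mean, at 0.543, and *Plin1* the farthest, at 2.37. These likenesses rest on libraries that share tissue content and depth, and are descriptions.

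Some genes overlap others in the annotation, and how reads of overlapping genes or opposite strands were counted is not given in the sources used here. *Adrb3* shares 839 exon bases with the antisense gene *Gm45470*. *Lipe*, *Abhd5* and *Mgll* overlap antisense genes with 134, 58 and 507 reads over all libraries, against 139138, 43317 and 136831 for the genes themselves.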

How the data were processed

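RNA sequencing was run on 19 libraries in 5 groups, and the groups follow the sample labels. The authors aligned reads with TopHat2 2.1.1 and Bowtie2 to GRCm38 (mm10) and deposited 1 table of normalized counts, a signal of read counts over DESeq2 size factors. The counting tool, annotation and strand setting are not given in the sources used here. The study's text names an mRNA kit and the labels name total RNA. Every deposited value came out as a whole read within 0.05 (100% of values), so counts were recovered from the deposited normalized counts. Identifiers were matched to GENCODE vM21 (98.16%, 849 unmatched).

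The main test was limma 3.58.1 (R 4.3.3) on log2(value + 1) with Benjamini-Hochberg adjustment over all genes with at least 10 normalized counts in as many libraries as the smaller group holds. The test fits the deposited unit, whereas the study's own tool takes counts. edgeR 4.0.16 and DESeq2 1.42.0 were run on recovered reads as alternatives, beside other scalings, pseudocounts, filters, covariates, a replicate block and leaving out each library. Leaving out MG-NP replicates 2 and 4 together, another gene length, scaling by total reads and a score of *Adipoq*, *Cfd*, *Lep* and *Retn* alone were chosen after seeing the data. Permutation tests were exact and two-sided. Scripts were tested on simulated data. Intervals of the fits are 95%, and a floor of 3 reads covers counting error only.

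The members and lists were chosen with earlier results of these data known. The text names the 10 genes, up to 3 called genes of each pathway list with the largest changes per comparison, genes that could not be tested and the 5 genes of nearest pattern.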

Additional observations from a re-analysis of the deposited data

How the results depend on the processing

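In results with some but not all of the 10 genes called, the same genes were called in 56 of 74 other settings and in 36 of 46 fits without 1 library. Where none was called this held in 65 of 65 and 48 of 48, and where all 10 were called in 23 of 24 and 14 of 14. The number called moved by over 1.5 times once, in MG-NP against MG-WT with the skeletal muscle score as a covariate, where 5 of 10 were called, and the cause was not tested. Same-numbered libraries had correlated deviations of -0.257 to 0.285, so the numbers did not pair the samples. With the replicate block the *Lipe* call in T-N against MG-WT was lost (-0.91) and the relative *Pde3b* call in T-NP against MG-NP was lost (1.08, adjusted p = 0.0579), and no other call of the 10 changed. That *Pde3b* call was also lost with the score made without *Adipoq*, *Cfd*, *Lep*, *Lpl* or *Retn* (0.77 to 0.97). A pseudocount of 5 lowered *Adrb3* in MG-N against MG-WT to 8.92.

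Some differences changed sign, none of them called in the main test except *Plin4* in T-NP against MG-NP relative to the marker score. With DESeq2 and edgeR these were *Plin1* in the interaction (-0.86 and -0.85), *Plin2* in T-N against MG-N (0.08 with both), *Mgll* (0.08 and 0.11) and *Plin4* (0.26 and 0.30) in T-N against MG-WT, and *Plin1* (-1.64 and -1.63) and *Plin4* (-0.63 and -0.62) in T-NP against T-N, where a pseudocount of 5 gave *Plin1* -0.40. The *Adrb3* interaction was 0.22 without MG-NP replicates 2 and 4, 1.10 with the muscle covariate, 0.13 with T-NP replicates 1 and 2 averaged and 0.02 with total read scaling. *Abhd5* in T-NP against MG-NP was 0.14 without MG-NP replicates 2 and 4, and *Mgll* in T-NP against MG-WT was 0.09 with the block. Relative to other marker scores, *Lipe* in MG-NP against MG-N was 0.01 (0.07 with *Adipoq*, *Cfd*, *Lep* and *Retn* alone, where *Plin1* was 0.04) and *Plin4* -0.03 to -0.01, and in T-NP against T-N *Plin4* was -0.11, *Pnpla2* 0.16 and *Abhd5* 0.14. Relative to *Adipoq*, *Cfd*, *Lep* and *Retn* alone, *Adrb3*, *Plin1* and *Plin4* in T-N against MG-N were 0.47, 0.30 and 0.21, *Plin4* in T-NP against MG-NP was 0.35, and *Pde3b* (4.10) and *Lipe* (3.44) were called higher in T-N.

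Without 1 library the sign also varied. Interactions ran from -1.12 to 0.60 for *Adrb3*, -0.04 to 0.58 for *Pde3b*, -0.95 to 1.98 for *Plin1* and -0.20 to 2.19 for *Plin4*. *Plin2* in T-N against MG-N ran from -0.43 to 0.21 and *Abhd5* in T-NP against MG-NP from -0.38 to 0.04. Against MG-WT, *Mgll* (-0.49 to 0.22) and *Plin4* (-1.79 to 0.60) in T-N and *Mgll* (-0.36 to 0.09) and *Pnpla2* (-0.22 to 0.10) in T-NP did so. In T-NP against T-N, *Mgll* ran from -0.38 to 0.34, *Plin1* from -1.79 to 1.14 and *Plin4* from -0.99 to 1.40. Relative to the marker score, MG-NP against MG-N gave -0.22 to 0.06 for *Adrb3*, -0.15 to 0.16 for *Lipe*, -0.16 to 0.05 for *Plin1* and -0.16 to 0.13 for *Plin4*. T-NP against T-N gave -1.21 to 0.10 for *Mgll*, -0.78 to 0.55 for *Pnpla2*, -0.94 to 0.73 for *Abhd5* and -0.51 to 0.58 for *Plin4*.

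Depth limits the lowest values most, which are those of *Adrb3* and *Plin1* in MG-WT and tumors. Groups of 3 or 4 libraries limit the rest.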

Other observations

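MG-NP replicate 4, the library with the most *Ucp1*, was also high in droplet genes of brown fat. Its *Cidea*, which enlarges droplets, had a normalized count of 9003, against 1224, 55.7 and 402.9 in MG-NP replicates 1 to 3 and at most 679.7 in MG-N. Its *Plin5* was 2590.3, against 560.8, 505.3 and 160.3. *Cidec*, the relative of *Cidea* found in white fat, was 33295 there, within the range of 19958 to 37734 in MG-N. Among the 10 genes, the same library held the highest normalized count of its group for *Adrb3*, *Pde3b*, *Pnpla2*, *Lipe*, *Mgll*, *Abhd5*, *Plin1*, *Plin2* and *Plin4*, and the second highest for *G0s2*. Its size factor was 0.7744 with 26888814 reads, and per total reads MG-NP replicate 3 was the higher for 5 of these 9 genes (*Adrb3*, *Lipe*, *Plin1*, *Plin2* and *Plin4*).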
